A study of Mus musculus with 84 samples.

Results

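The genes described here are 8 members of subfamily A of the ATP-binding cassette (ABC) transporters, Abca1, Abca2, Abca3, Abca5, Abca7, Abca8a, Abca8b and Abca9, out of 55401 gene IDs counted in nuclear RNA of mouse cortical neurons. They were taken by name. The family was chosen by the level of Abca2, which had been about 3-fold higher 24 h and 48 h after the drug DOI. Values of Abca2 that rest on those groups, or on their vehicle controls, are therefore given as a description without a test. The other 7 genes are further members of that family, listed with earlier results of these data known. The files hold 8 more ABCA genes outside the list, which serve for comparison.

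The mice were of strain 129S6/SvEvTac and 12 weeks old. One group had received vehicle, and the sampling time of that group is not given in the labels. The other 3 groups had received DOI (2,5-dimethoxy-4-iodoamphetamine), a psychedelic agonist of the serotonin 2A receptor, and were sampled after 24 h, 48 h or 7 days. From the frontal cortex of each animal, nuclei carrying NeuN, a protein of neuronal nuclei, were sorted and their RNA sequenced in 2 libraries, so nuclei of all neuron types were read as a pool. The design names 6 mice a group, and RNA counts of 4 a group were analysed here.

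ABCA proteins are large membrane transporters that use ATP to move lipids, mostly phospholipids and sterols, across or out of membranes. Abca1 hands cholesterol and phospholipid to lipid-poor apolipoproteins such as ApoE and is a classical target gene of the liver X receptors (LXR), nuclear receptors that sense sterols and pair with the retinoid X receptors (RXR). In brain, ABCA genes are studied in neurons and glia for sterol and sphingolipid handling, and Abca7 is best known as a risk gene for Alzheimer's disease.

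The stretches of 250 bases before the RefSeq start sites (assembly GRCm38.p6) are shown for the 4 members on which the results turn: Abca2, Abca9 and Abca7, whose DOI mice at 24 h and 48 h lay apart from vehicle, and Abca1, whose regulation by LXR is best known. They run 5′ to 3′ on the strand of the gene, and capitals mark matches, on either strand, to an LXR element (GGTNA and GGTCA with 5 bases between), an EGR element (GCGNGGGCG), a GC box (GGGCGG), an E-box (CACGTG) or a TATA box (TATAAA). The positions are chr2:25428349-25428598 (plus strand) for Abca2, chr11:110168154-110168403 (minus strand) for Abca9, chr10:79996244-79996493 (plus strand) for Abca7 and chr4:53159896-53160145 (minus strand) for Abca1.
Abca2: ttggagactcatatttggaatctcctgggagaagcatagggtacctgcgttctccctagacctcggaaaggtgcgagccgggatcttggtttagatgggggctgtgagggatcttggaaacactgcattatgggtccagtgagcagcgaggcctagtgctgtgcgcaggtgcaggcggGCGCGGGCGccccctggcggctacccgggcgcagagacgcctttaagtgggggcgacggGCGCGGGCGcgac
Abca9: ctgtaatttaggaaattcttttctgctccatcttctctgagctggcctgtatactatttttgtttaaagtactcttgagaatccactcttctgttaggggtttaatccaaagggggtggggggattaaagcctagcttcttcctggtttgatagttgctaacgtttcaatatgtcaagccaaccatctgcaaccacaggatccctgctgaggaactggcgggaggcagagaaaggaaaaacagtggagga
Abca7: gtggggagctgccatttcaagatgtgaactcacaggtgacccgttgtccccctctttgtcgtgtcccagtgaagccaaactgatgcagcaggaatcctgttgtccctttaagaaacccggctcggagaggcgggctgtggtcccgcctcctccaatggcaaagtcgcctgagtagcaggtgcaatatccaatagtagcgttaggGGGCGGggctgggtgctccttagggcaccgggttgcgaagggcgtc
Abca1: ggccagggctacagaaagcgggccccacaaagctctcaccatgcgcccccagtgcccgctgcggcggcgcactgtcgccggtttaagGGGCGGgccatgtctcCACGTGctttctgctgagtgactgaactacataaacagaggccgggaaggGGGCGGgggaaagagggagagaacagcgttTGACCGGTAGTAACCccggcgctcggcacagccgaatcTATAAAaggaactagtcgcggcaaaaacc
The Abca2 stretch held the EGR letters at 2 places, starting 72 and 13 bases before the start site, and no other member held them. The letters occur before 4.65% of the 27025 genes in the table. The Abca1 stretch held the LXR letters on the minus strand, starting 67 bases before the start, which 0.163% of genes have, and it alone of the 8 held the TATA letters (13.0% of genes). A GC box was found before 5 of the 8 members (32.9% of genes) and an E-box before Abca1 and Abca8a (6.05% of genes). Abca9 held none of the 5 motifs. Its stretch had a GC content of 44.4%, against 63.2% for Abca2, 61.6% for Abca1, 58.8% for Abca7 and a median of 52.0% over all genes. The RefSeq starts of Abca1 and Abca7 are those of the gene models in the count files, and those of Abca2 and Abca9 differ from them. No matches of different motifs overlap. A match describes letters only, and binding was not measured here.

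Total counts per mouse ranged from 9151680 to 11517452 in vehicle, 6441396 to 8090559 at 24 h and 5834248 to 7344355 at 48 h. They were 6972577 to 12354785 at 7 days. Thus the vehicle totals did not overlap those at 24 h and 48 h. The share of counts on the 18S ribosomal RNA copy Rn18s-rs5 was 0.00694% to 0.0101% in vehicle, 0.328% to 1.57% at 24 h and 0.523% to 1.66% at 48 h. At 7 days it was 0.00834% and 0.00607% in mice 1 and 3 and 0.633% and 0.474% in mice 2 and 4. The mitochondrial share was 0.0171% to 0.0701%, 0.0621% to 0.101%, 0.108% to 0.268% and 0.021% to 0.13% in the same order of groups. In mouse 1 of the 24 h group and in mouse 2 of the 48 h and of the 7 days group (3 mice), the file headers carry the mouse number 6 in place of the labelled number, and results that change without these mice are given both ways. The 9 neuron markers summed to 4380 to 7170 CPM over all mice, where CPM are counts brought to a common library total with TMM factors, edgeR's scaling. Oligodendrocyte markers summed to 176 to 403 CPM and endothelial markers to at most 26.7 CPM. With pooled nuclei, fewer cells of a type and less RNA per cell cannot be told apart.

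In vehicle neurons the 8 genes spanned a wide range of levels. On a per-length scale (RPKM, counts scaled by exon length and library total), the means over 4 mice were 10.2 for Abca7, 9.05 for Abca3, 7.36 for Abca8b and 7.19 for Abca5. Abca1 and Abca2 followed with 3.08 and 2.73 RPKM, and Abca8a and Abca9 were lowest with 0.412 and 0.362 RPKM. Within each of these 3 sets neighbours overlapped between mice, and between the sets they did not. Among the 17941 genes tested, Abca7 lay at percentile 70.2, Abca2 at 41.1 and Abca9 at 9.11.

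Abca2, a transporter of late endosomes and lysosomes that is linked to sphingolipid and sterol trafficking and is abundant in oligodendrocytes, lies on chromosome 2 from 25428703 to 25448540 (GRCm38, plus strand) with 8346 bases of exon in 46 blocks. Its level was 23.5, 20.8, 22.4 and 24.3 CPM in vehicle mice 1 to 4. At 24 h it was 41, 94.2, 72.5 and 81 CPM. At 48 h it was 75.6, 70.6, 67.3 and 91.1 CPM. All 8 of these DOI mice lay above all 4 vehicle mice, as is the case for 18.5% of all genes at 24 h and 19.2% at 48 h, and 24 h mouse 1, one of the mice with a deviating header number, was the lowest of them. The fitted log2 fold changes were 1.66 (3.17-fold) at 24 h and 1.74 (3.34-fold) at 48 h, and without the 3 mice of deviating header number they were 1.86 and 1.78. With the Rn18s-rs5 share as a covariate they were 0.82 and 0.87, and with the mitochondrial share 1.48 and 1.42. These contrasts chose the gene, so no test is given.

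At 7 days Abca2 was 26.3 and 27.9 CPM in mice 1 and 3 and 42.6 and 42.1 CPM in mice 2 and 4. All 4 values were above the highest vehicle mouse, as for 2.81% of all genes, and all 4 were below the lowest 48 h mouse, as for 3.02%. Vehicle and 48 h values served to choose the gene, so nothing is read from these shares. Against vehicle the log2 fold change was 0.61, given without a test since the same vehicle mice are in the contrasts that chose the gene. Against 48 h the log2 fold change was -1.13, given without a test since the high values at 48 h chose the gene. Mice 2 and 4, the higher pair in Abca2, are also the pair with the high Rn18s-rs5 share. The difference between 7 days and vehicle was 0.22 on the log2 scale once that share was in the fit and 0.47 with the mitochondrial share instead, again without a test. Between 24 h and 48 h Abca2 differed by 0.08 on the log2 scale, also given without a test since both groups served to choose it.

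**Figure D1:**
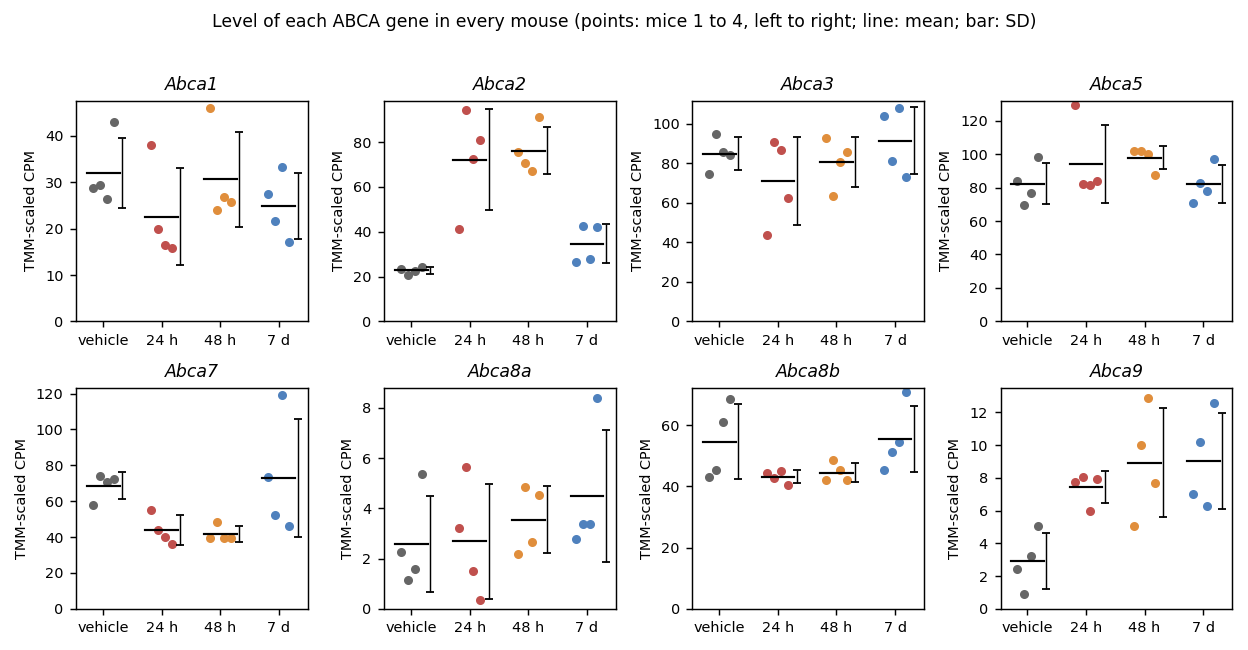
Level of each of the 8 genes in TMM-scaled CPM (y axis, starting at 0) by group (x axis). Points are mice 1 to 4 from left to right, lines are group means and bars are SD (n = 4). All Abca2 points at 24 h and 48 h lie above the vehicle points, and Abca9 lies above vehicle in all 3 DOI groups, while Abca7 lies below vehicle at 24 h and 48 h.

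Of the 7 members other than Abca2, 1 passed the test at 24 h and 2 at 48 h. Over all 17941 genes tested, 24.2% passed at 24 h (13.8% higher) and 30.1% at 48 h (16.8% higher and 13.3% lower), and nothing is read from the members' counts beside these shares since the contrasts served to choose the family. The median log2 fold change of the 7 genes was -0.25 at 24 h and -0.06 at 48 h, against 0.03 and 0.02 over all genes. Scaling by total counts alone moved the median of all genes to 0.14 and 0.12, and the share of higher genes among the calls at 24 h from 57% to 67.3%. Relative to that median, the log2 fold change of Abca9 at 24 h was 1.3 and that of Abca7 at 48 h was -0.75, as with TMM (1.31 and -0.75). Taking off the median removes a shift common to all genes, so this likeness follows from the measure.

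Abca9, a little studied transporter of a gene cluster on chromosome 11 (110100749 to 110168196, minus strand, 8048 bases of exon), was the 1 gene of these 7 called higher. Its level was 2.45, 0.91, 3.24 and 5.06 CPM in vehicle, on 8 to 52 counts a mouse. At 24 h it was 7.77, 8.04, 5.96 and 7.93 CPM and at 48 h 5.07, 10, 12.9 and 7.71 CPM. No DOI mouse of these groups overlapped vehicle, as for 18.5% of all genes at 24 h and 19.2% at 48 h on the higher side, although 48 h mouse 1 lay just above vehicle mouse 4. The log2 fold change was 1.34 (SE 0.42) at 24 h with an adjusted p of 0.0292, and 1.60 (SE 0.42) at 48 h with an adjusted p of 0.0105 (edgeR). At 7 days the mice had 7.03, 10.2, 6.3 and 12.6 CPM, again all above vehicle, as for 2.81% of all genes. That log2 fold change was 1.62 (SE 0.42, 95% interval 0.73 to 2.5) with an adjusted p of 0.0993 and did not pass.

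The calls of Abca9 rest on few counts. In vehicle mouse 2 its 2 libraries differed most, 6.71-fold, where the median mouse had a ratio of 1.27. The call at 24 h was lost without vehicle mouse 1, 2 or 3 and without 24 h mouse 1, 2 or 4 (adjusted p from 0.0541 to 0.0793), and without the 3 mice of deviating header number (0.0656). At 48 h no single mouse ended it. With the share of counts on Rn18s-rs5 as a covariate the log2 fold changes were 0.72 and 0.95, with the mitochondrial share 0.84 and 0.67, and neither call was kept with either covariate. At 7 days it was gained without mouse 1 (adjusted p 0.0279) or mouse 3 (0.0282).

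Abca7, the closest relative of Abca1 and a phospholipid exporter, lies on chromosome 10 (79996494 to 80015572, plus strand, 6752 bases of exon) and was the 1 gene of the 7 called lower. It had 57.6, 74, 70.9 and 72.3 CPM in vehicle. At 24 h it had 55.3, 43.9, 40.2 and 36.1 CPM and at 48 h 39.4, 48.2, 39.3 and 39.5 CPM. Both groups lay below all vehicle mice, as for 17.2% of all genes at 24 h and 19% at 48 h, with 24 h mouse 1 closest to them. The log2 fold change at 48 h was -0.72 (SE 0.24) with an adjusted p of 0.0322 in edgeR, and at 24 h it was -0.65 (SE 0.24) with an adjusted p of 0.0582. The call at 48 h was lost without vehicle mouse 2, 3 or 4 and without 48 h mouse 1, 3 or 4 (adjusted p from 0.0623 to 0.0736), and a call at 24 h was gained without 24 h mouse 1 (0.0461), also when all 3 mice of deviating header number were left out (0.0411). The call at 48 h was also lost with either share as a covariate: with the Rn18s-rs5 share the direction turned, to a log2 fold change of 0.41 at both times, and with the mitochondrial share the values were -0.37 at 24 h and -0.25 at 48 h.

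At 7 days Abca7 spread widely, with 73.3, 52.4, 119 and 46.3 CPM in mice 1 to 4. Mouse 1 lay within the vehicle range, mouse 3 above it and mice 2 and 4 below it, so the pair that was higher in Abca2 was lower in Abca7. The mean differed from vehicle by 0.09 on the log2 scale (interval -0.42 to 0.59). Against 48 h it was higher by 0.81 (SE 0.24, adjusted p 0.157 in edgeR), and this passed without 7 days mouse 4 (adjusted p 0.0433).

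Abca1 (chromosome 4, 53030787 to 53159895, minus strand, 10363 bases of exon) is the cholesterol exporter that loads ApoE with lipid. It had 28.8, 29.5, 26.4 and 43 CPM in vehicle and 38.1, 19.9, 16.4 and 15.9 CPM at 24 h. Of the 24 h mice only mouse 1 lay within the vehicle range, and the other 3 were below it. The log2 fold change of -0.50 (SE 0.30, interval -1.14 to 0.13) had an adjusted p of 0.229. Without 24 h mouse 1 it was -0.87 with an adjusted p of 0.0403, and without the 3 mice of deviating header number -0.88 with an adjusted p of 0.0419 (edgeR). At 48 h Abca1 had 45.9, 24.1, 26.8 and 25.7 CPM, at 7 days 27.4, 21.7, 33.3 and 17.1 CPM, and neither group passed the test (log2 fold changes -0.06 and -0.36).

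Abca3, which packs phospholipid into the lamellar bodies of lung and is also made in brain, had 74.5, 95, 85.9 and 84.1 CPM in vehicle and 44, 91.1, 87 and 62.5 CPM at 24 h. It had 93, 63.3, 80.8 and 86 CPM at 48 h and 104, 81.1, 108 and 73.2 CPM at 7 days. All groups overlapped, and the log2 fold changes against vehicle lay between -0.25 and 0.11 with adjusted p values of at least 0.399. Its gene (chromosome 17, 24351950 to 24410201, plus strand) shares 914 bases, 9.75% of its exon length, with the opposite-strand gene D330041H03Rik. By the counting tool's default, reads in such a stretch go to neither gene. D330041H03Rik fell by 1.55 on the log2 scale at 24 h (adjusted p 0.0182) and by 1.47 at 48 h (adjusted p 0.0193, edgeR). Its mean was 24.2, 8.27, 8.72 and 20.2 CPM over the groups in time order.

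Abca5, a lysosomal member, lies at the far end of the chromosome 11 cluster (110269369 to 110337716, minus strand, 11437 bases of exon). It had 84.1, 69.7, 76.8 and 98.5 CPM in vehicle and 129, 82, 81.3 and 83.8 CPM at 24 h. It had 102, 102, 100 and 87.7 CPM at 48 h and 70.6, 82.8, 78.1 and 97.2 CPM at 7 days. The groups overlapped, with log2 fold changes of 0.19, 0.25 and -0.002 and adjusted p values of 0.454, 0.292 and 0.995. The 24 h value of 129 CPM belongs to mouse 1, the same mouse that was lowest in Abca2 and Abca3 and highest in Abca1 and Abca7 among the 24 h mice.

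Abca8b and Abca8a are neighbouring paralogs in the chromosome 11 cluster, so reads that align to both are left out and their counts are uncertain. Abca8b (109932190 to 109995845, minus strand, 7423 bases of exon) had 43.2, 45.4, 61.2 and 68.7 CPM in vehicle. It had 44.5, 42.9, 44.9 and 40.4 CPM at 24 h, 42.2, 48.7, 45.2 and 42 at 48 h, and 45.4, 51.1, 54.4 and 70.7 at 7 days. The DOI mice at 24 h and 48 h lay close together, around the lower vehicle mice. The log2 fold changes of -0.34 (SE 0.18), -0.30 (SE 0.18) and 0.02 did not pass the test (adjusted p 0.183, 0.229 and 0.970 in edgeR). Abca8a (110025634 to 110095978, minus strand, 6272 bases of exon) was scarce, with 2.27, 1.14, 1.57 and 5.35 CPM in vehicle and 3.2, 5.66, 1.52 and 0.355 at 24 h, the last on 3 counts. It had 2.17, 4.85, 2.67 and 4.52 CPM at 48 h and 2.79, 3.36, 3.39 and 8.4 at 7 days, and all groups overlapped. The log2 fold changes against vehicle were 0.04, 0.45 and 0.78 (SE 0.65, 0.64 and 0.64), with adjusted p values of 0.972, 0.617 and 0.563. The interval at 24 h ran from -1.33 to 1.40 on the log2 scale, so changes of 2-fold in either direction lie within it at this depth. Abca5, Abca8a, Abca8b and Abca9 share the cluster, and of these Abca9 alone passed a test against vehicle. Whether its change differs from those of its neighbours was not tested.

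**Figure D2:**
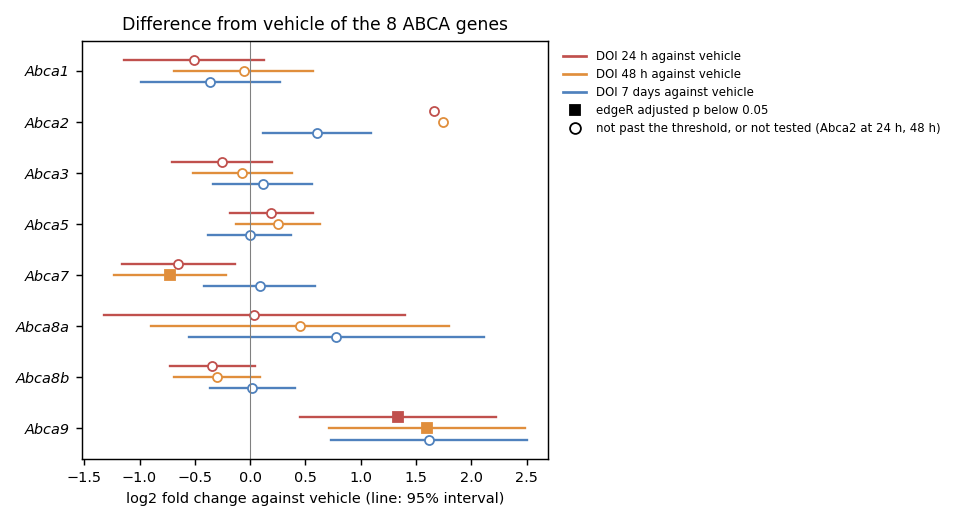
Log2 fold change against vehicle (x axis) of each gene (y axis) at 24 h, 48 h and 7 days, with 95% intervals as lines. Filled squares have an edgeR adjusted p below 0.05, and Abca2 at 24 h and 48 h is drawn without an interval since it was chosen there. The interval of Abca2 at 7 days rests on vehicle mice that served to choose it and is not read as a test. Abca9 is filled at 24 h and 48 h and Abca7 at 48 h.

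Among the 7 members other than Abca2, 0 passed the test at 7 days against vehicle, 0 at 48 h against 24 h and 0 at 7 days against 48 h in edgeR. The share of all genes called was 0% in each of these contrasts. At an unadjusted p below 0.05 these members numbered 1, 0 and 1 (Abca9 and Abca7), where all genes gave 16.8%, 1.88% and 16.5%. DESeq2 called 1, 0 and 0 of them, the 1 being Abca9 at 7 days against vehicle (adjusted p 0.00983). Across all genes DESeq2 called 796, 0 and 434. For 48 h against 24 h the interval of the log2 difference was widest for Abca8a (-0.95 to 1.78) and narrowest for Abca5 (-0.32 to 0.44).

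The summed level of the 8 genes differed between group means by less than the SD of vehicle, while its make-up differed. The sum of RPKM was 40.4 ± 4.27 (SD, n = 4) in vehicle, then 40.3 ± 2.99, 43.1 ± 1.32 and 43.6 ± 5.23 in the DOI groups in time order. Abca2 made up 6.80% ± 0.707 of that sum in vehicle, 21.5% ± 6.44 at 24 h and 21.2% ± 2.69 at 48 h, and 9.75% ± 3.14 at 7 days. The share of Abca7 was 25.3% ± 2.26, 16.1% ± 2.84, 14.3% ± 1.78 and 24.1% ± 8.05 in the same order. By mean RPKM, Abca2 moved from the sixth place of the 8 in vehicle to the first at 24 h (8.65) and 48 h (9.12), though its range there overlapped that of Abca5 and Abca3, the next in order. At 7 days it was in the fifth place with 4.16 RPKM, and Abca7 again first with 10.8. These shares carry the values that chose Abca2 and are a description.

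**Figure D3:**
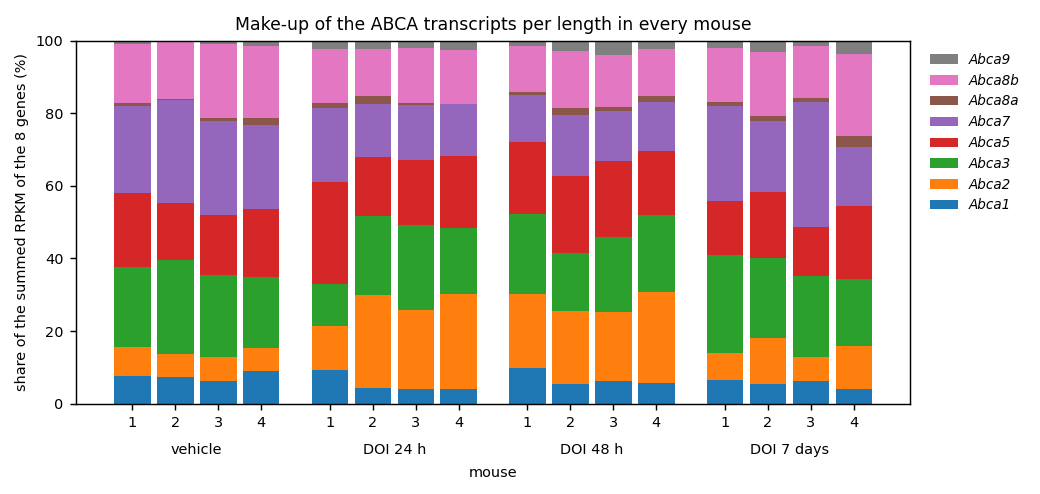
Share of each gene in the summed RPKM of the 8 genes (y axis, %) in every mouse (x axis, mice 1 to 4 of each group). The Abca2 segment lies between 6.32% and 7.84% in vehicle and between 12.2% and 26.2% in the 24 h and 48 h mice, and at 7 days it is larger in mice 2 and 4 than in mice 1 and 3.

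The genes whose course over the 16 mice was most like that of Abca2 were found by the root mean square difference of log2 CPM, centred on the vehicle mean, among 12793 genes of sufficient level. They were Crtc1 (0.192), Zfp646 (0.217), Prr36 (0.223), Bsn (0.228) and Zmiz2 (0.233), against a median of 1.36 over the 12793 genes ranked. Crtc1 encodes a coactivator of the transcription factor CREB, and its mean level was 50.5, 171, 162 and 82.9 CPM in vehicle and at 24 h, 48 h and 7 days. Bsn encodes the presynaptic scaffold protein Bassoon and went from 45.4 to 141, 152 and 79.4 CPM. Among the members Abca9 was nearest to Abca2 (0.778, rank 1560) and Abca7 farthest (1.77, rank 10102). Abca5, Abca3, Abca8b and Abca1 lay between them with 1.13, 1.37, 1.44 and 1.61. All genes share the same libraries, depth and scaling, so the ranking is a description.

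Of the 8 further ABCA genes, Abca4, Abca6, Abca12 and Abca17 had enough counts to be tested, with group means between 0.933 and 5.19 CPM. Of these 4, 0 were called against vehicle at any time in edgeR or DESeq2, with 0 at an unadjusted p below 0.05. Over all genes edgeR called 24.2% at 24 h, 30.1% at 48 h and 0% at 7 days, where 16.8% had an unadjusted p below 0.05. With 4 genes at these low levels, nothing is read from the count. Abca6, another gene of the chromosome 11 cluster, had 3.14, 3.58, 5.19 and 2.69 CPM in the groups in time order (log2 fold change at 48 h 0.72, SE 0.46, adjusted p 0.234 in edgeR). Abca13, Abca14 and Abca15 had group means of at most 0.513 CPM and Abca16 had 0 counts in every mouse, where the floor of 3 counts corresponds to 0.254 to 0.502 CPM.

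From a list of 26 other genes of the ABC superfamily, 25 were tested. Of these, 3 were higher and 8 lower at 24 h (44.0% against 24.2% of all genes) and 5 higher and 7 lower at 48 h (48.0% against 30.1%). The median log2 fold change was -0.29 and -0.20. Abcg1, which passes sterol on to lipoproteins that Abca1 has begun to fill, rose from 61.7 ± 13.2 CPM to 177 ± 48.8 at 24 h and 183 ± 34.1 at 48 h (SD, n = 4), by log2 1.52 and 1.57 (adjusted p 0.00544 and 0.00374 in edgeR). Its close relative Abcg4 fell from 78.3 ± 5.00 CPM to 44.6 ± 7.64 and 47.5 ± 6.03 (log2 -0.81 and -0.72, adjusted p 0.0149 and 0.0211). Abcc4, an exporter of organic anions, rose by log2 2.02 at 24 h, and Abce1, a ribosome recycling factor that transports nothing, fell by 0.96 on that scale (adjusted p 0.00585 and 0.00418).

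LXR alpha and beta, with their RXR partners, are the sterol-sensing receptors that control Abca1 and Abcg1 in other tissues. Of 13 genes of LXR, RXR and cholesterol efflux, 1 was higher and 1 lower at 24 h, namely Abcg1 and Abcg4, and 2 higher and 1 lower at 48 h, when Rxra (4.19 ± 0.893 CPM in vehicle, 8.51 ± 2.33 at 48 h, log2 1.02, adjusted p 0.0299) was added. These are 15.4% and 23.1% of the list, where 24.2% and 30.1% of all genes were called, and its median log2 fold change was 0.13 and 0.22. Nr1h2, encoding LXR beta, had 11, 5.98, 4.98 and 7.84 CPM in the 4 groups in time order (adjusted p 0.233 at 24 h and 0.111 at 48 h). Nr1h3, encoding LXR alpha, stayed at or below 1.53 CPM in every group mean. Rxrb had 28.2 CPM in vehicle and 40.3 at 24 h (adjusted p 0.0893), and Rxrg had 6.72 in vehicle and 19.0 at 7 days (adjusted p 0.144). Apoe, the lipid carrier that Abca1 loads, had 245, 301, 293 and 240 CPM, with adjusted p values of 0.497 and 0.546 at 24 h and 48 h.

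Of 11 genes for lipoprotein receptors and endosomal cholesterol, 1 was higher at 24 h and 2 at 48 h, with 0 lower (9.09% and 18.2%, against 24.2% and 30.1% of all genes, median -0.04 at both times). Lrp1, a receptor that takes up ApoE particles, rose from 57.0 ± 4.79 CPM to 107 ± 42.5 at 24 h and 123 ± 37.6 at 48 h (log2 0.91 and 1.10, adjusted p 0.0179 and 0.00584), although its 24 h range of 51.2 to 152 CPM overlapped vehicle. Soat1, which esterifies cholesterol for storage, rose at 48 h by log2 0.98 (adjusted p 0.0128). Cyp46a1, the neuronal cholesterol hydroxylase, had 184 CPM in vehicle, 107 at 24 h and 110 at 48 h, with adjusted p values of 0.0651 and 0.0723 in edgeR.

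In the list of the SREBP pathway and sterol synthesis, 15 genes were tested, with 1 higher and 3 lower at 24 h and 2 higher and 4 lower at 48 h (26.7% and 40.0%, against 24.2% and 30.1% of all genes, medians -0.22 and -0.27). Scap, the escort of the SREBP transcription factors, rose from 38.7 ± 0.913 CPM to 72.3 ± 8.29 at 24 h and 79.5 ± 12.1 at 48 h (adjusted p 0.00566 and 0.00240). Insig2, which holds Scap back in the endoplasmic reticulum, fell from 112 to 69.6 and 79.8 CPM (adjusted p 0.00680 and 0.0273), and the synthesis enzyme Sqle fell from 148 to 92.1 and 81.7 CPM (adjusted p 0.0388 and 0.0119). Srebf1 and Srebf2 did not pass (adjusted p from 0.205 to 0.859 at 24 h and 48 h).

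Of 20 sphingolipid genes, 2 were higher and 4 lower at 24 h and 1 higher and 4 lower at 48 h (30.0% and 25%, against 24.2% and 30.1% of all genes), with medians of -0.22 and -0.29. Cers2, a ceramide synthase, fell from 177 ± 10.8 CPM to 70.4 ± 20.1 and 76.3 ± 14.0 (log2 -1.33 and -1.21, adjusted p 0.00426 and 0.00530). Asah1, the lysosomal ceramidase, fell from 221 ± 26.3 to 106 ± 25.3 and 103 ± 18.9 CPM (adjusted p 0.00651 and 0.00449). S1pr1, a receptor of sphingosine 1-phosphate that is strong in endothelium and astrocytes, rose from 2.44 ± 0.792 to 11.7 ± 4.65 and 15.6 ± 12.3 CPM (adjusted p 0.00486 and 0.00194 in edgeR). At 7 days against vehicle 0 genes of these 5 lists passed in edgeR, as for all genes. There an unadjusted p below 0.05 was found for 3 of the 25 other ABC transporters, 3 of the 13 LXR and efflux genes, 0 of the 11 lipoprotein genes, 4 of the 15 sterol genes and 1 of the 20 sphingolipid genes, where all genes gave 16.8%. DESeq2 called 1 of the 13 and 1 of the 15 and 0 in the other lists, and 796 of all genes.

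**Figure D4:**
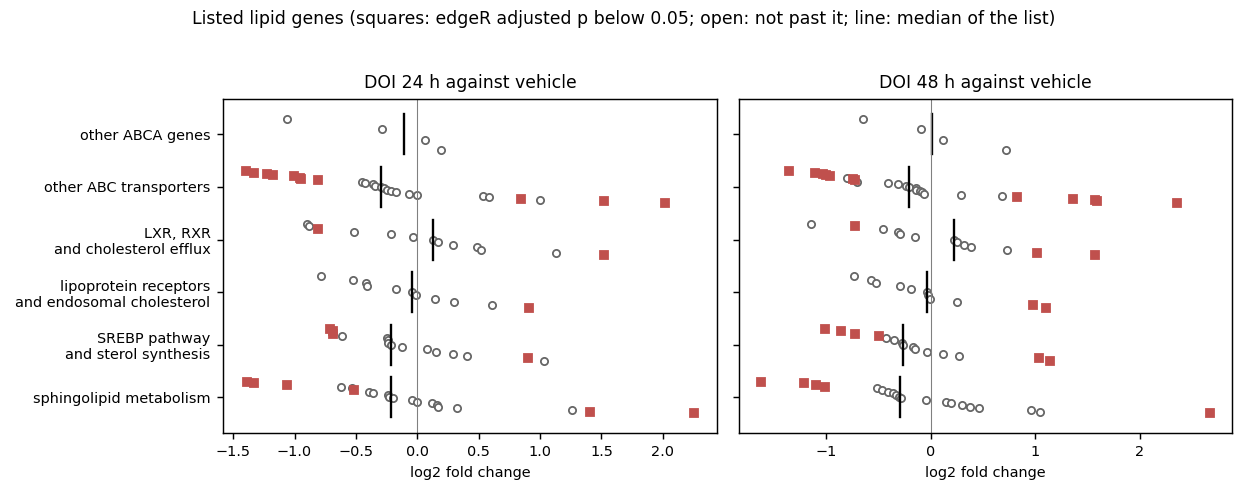
Log2 fold change (x axis) of every tested gene in 6 lists (y axis) at 24 h (left) and 48 h (right) against vehicle. Filled squares passed the edgeR test at 0.05 and black lines are list medians. The list of other ABC transporters has squares on both sides, 3 higher and 8 lower at 24 h and 5 higher and 7 lower at 48 h.

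Measures of other cells and of the libraries moved with some of these values. The neuron markers summed to 6710 to 7050 CPM in vehicle, 4870 to 6970 at 24 h and 4380 to 6810 at 48 h. The 9 genes did not move one way, with 1 higher and 3 lower at 24 h and 2 higher and 2 lower at 48 h by the edgeR test. These are 44.4% of the list at both times, against 24.2% and 30.1% of all genes. Snap25, the most abundant of them, fell from 4101 to 2738 and 2669 CPM (adjusted p 0.0395 and 0.0257). Gad1 had 632, 354 and 415 CPM and Gad2 258, 167 and 187 CPM in vehicle, at 24 h and at 48 h. Slc17a7 had 142, 81.5 and 82.7 CPM in the same order. Rbfox3, which encodes the sorting marker NeuN, rose 1.75-fold and 1.76-fold (adjusted p 0.0103 and 0.00775), and Map2 rose 1.46-fold at 48 h (adjusted p 0.0400). The part of these markers in the results was not tested. Summed over 10 oligodendrocyte markers, the level was 182 to 402 CPM in vehicle, 176 to 275 at 24 h and 204 to 272 at 48 h. Of 9 tested, Cldn11 was higher at 24 h (2.01 to 7.02 CPM, adjusted p 0.0445) and 2.82-fold vehicle at 48 h (adjusted p 0.0776), while Mbp was lower at 24 h (114 to 63.9 CPM, adjusted p 0.0367) and Cnp lower at 48 h (26.6 to 13.1 CPM, adjusted p 0.0457). The 5 markers of oligodendrocyte precursors summed to 15.7 to 38.3 CPM in vehicle, 19.6 to 31.3 at 24 h and 20.9 to 28.3 at 48 h. Among them Cspg4 was higher at 24 h and 48 h (0.539 to 2.17 and 2.64 CPM, adjusted p 0.0367 and 0.0173) and Olig1 lower at 48 h (13.8 to 5.73 CPM, adjusted p 0.0183 in edgeR). The part of these markers in the level of Abca2 was not tested. The 9 mural and fibroblast markers summed to 14.4 to 19.6 CPM in vehicle, 17.4 to 38.8 at 24 h and 17.2 to 54.3 at 48 h, with 1, 2 and 2 markers at 0 in every mouse of the group. Of 5 tested, Vtn was higher at both times (3.39 to 11.1 and 11.7 CPM, adjusted p 0.0461 and 0.0333). The 7 endothelial markers summed to 1.79 to 4.55, 4.18 to 26.7 and 2.75 to 9.34 CPM, with 1 marker, Cldn5, at 0 throughout vehicle. Of 4 tested, Ly6c1 (0.256 to 4.57 CPM, adjusted p 0.0150) and Slco1a4 (0.302 to 3.39 CPM, adjusted p 0.0432) were higher at 24 h, and at 48 h they had 1.40 and 0.603 CPM (adjusted p 0.107 and 0.583 in edgeR). The 8 astrocyte markers summed to 191 to 244 CPM in vehicle, 212 to 309 at 24 h and 191 to 401 at 48 h, with 0 markers at 0 throughout a group and 1 of 7 tested called higher at each time. The highest sums were those of 24 h mouse 1 (309) and 48 h mouse 1 (401), which were also the highest mice of their groups in Abca1 (38.1 and 45.9 CPM). Among these markers, Slc4a4 had mean levels of 47.1, 87 and 102 CPM in vehicle, at 24 h and at 48 h. Gja1 went the other way, with 41.9, 28.5 and 33 CPM. The 8 microglia markers summed to 169 to 204 CPM in vehicle, 108 to 201 at 24 h and 119 to 183 at 48 h, and the lowest adjusted p among them was that of Tmem119 (0.211 at 24 h and 0.06 at 48 h in edgeR). The part of these cell types in the values of Abca1, Abca9 and S1pr1 was not tested. At 24 h and 48 h, 22.2% and 11.1% of oligodendrocyte markers, 20% and 40% of precursor markers and 50% and 0% of endothelial markers were called. The share was 14.3% of astrocyte markers, 20% of mural and fibroblast markers and 0% of microglia markers at both times. All genes gave 24.2% and 30.1%, and with so few markers a list nothing is read from these shares.

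The Rn18s-rs5 share and the mitochondrial share differed between the groups, which explained 75.1% and 53.9% of their variance on the log2 scale. With either share as a covariate, 0 of the 7 members passed at 24 h and at 48 h. Since the shares and the groups move together, their effects cannot be told apart. With counts thinned to 5834248 a mouse, the depth of the shallowest, Abca2 was 1.62 and 1.71 on the log2 scale and the calls of Abca9 at both times and of Abca7 at 48 h held.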

How the data were processed

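The deposited values were raw counts per gene and library that the authors made with featureCounts 2.0.0 over the exons of Ensembl genes (GRCm38), per the file headers, with no option for strand, read pairs or multi-mapping reads. The labels' processing notes list mm10. The RNA aligner is not given in the sources used here. Library totals were 2763704 to 7436451. H3K27ac samples were not analysed here.

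Each mouse (16 in all, 4 a group) was 1 replicate, with the counts of its 2 libraries added. Genes passing edgeR's filterByExpr (17941) were scaled by TMM and fitted with edgeR 4.0.16 (quasi-likelihood, R 4.3.3) in 1 model of the 4 groups. P-values were adjusted by Benjamini-Hochberg over all genes, with a threshold of 0.05. Log2 CPM used a prior count of 2, and SEs were derived from the F statistic. Reads carried no molecular identifiers, so count floors cover counting error only.

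The members, lists and tests were chosen with earlier results of these data known. Named were the members, detected ABCA genes, genes overlapping a member, the 5 genes most like Abca2, the 3 genes of smallest p at 24 h in each list, and the main sterol regulators. Alternatives were DESeq2 1.42.0, other scalings and filters, single libraries, a replicate block, covariates, thinned counts and mice left out. The fit was tested on simulated data.

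Symbols came from the gene name table given (55141 of 55401 IDs, 99.5%). Promoter sequences came from RefSeq (GRCm38.p6), and all 8 members matched.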

Additional observations from a re-analysis of the deposited data

Results flagged for a closer look

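In 6 of 32 groups of 4 mice (8 genes in 4 groups), 1 mouse stood apart from the other 3 by Dixon's ratio. Chance flags about 1 in 20 groups, which is 1.6 of 32. At 24 h, mouse 1 had 129 CPM of Abca5 where the nearest mouse had 83.8, and mouse 3 had 5.96 CPM of Abca9 where the nearest had 7.77. At 48 h, mouse 1 had 45.9 CPM of Abca1 where the nearest had 26.8. Mouse 4 had 87.7 CPM of Abca5 where the nearest had 100, and mouse 2 had 48.2 CPM of Abca7 where the nearest had 39.5. At 7 days, mouse 4 had 8.40 CPM of Abca8a where the nearest had 3.39. Of these, 24 h mouse 1 and 48 h mouse 2 are mice whose header number differs from the label.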

How the results depend on the processing

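Leaving out each mouse in turn refitted all genes and was read for the members only. It gave 0 to 2 calls among the 7 members other than Abca2 at 24 h against vehicle (1 with all mice), 1 to 2 at 48 h (2), and, of the 8 members, 0 to 1 at 7 days against vehicle (0) and 0 to 2 at 7 days against 48 h (0). The count at 24 h was 2 with DESeq2, without a filter, without the 3 mice of deviating header number and with only the groups compared, and 0 with library 2 alone and with either covariate. The count at 48 h was 1 with library 2 alone and 0 with either covariate. The count at 7 days against vehicle was 1 with DESeq2 and without a filter. At 7 days against 48 h it was 1 with DESeq2, 2 without a filter and 1 without the 3 mice of deviating header number, but these counts include Abca2, whose 48 h values chose the family and whose calls there are no evidence. Apart from Abca2 they were 0, 1 (Abca7) and 0, and 0 to 1 with a mouse left out. For 48 h against 24 h it was 0 under every alternative run. Except where few counts or mice remain by construction, the cause was not tested. Across all genes DESeq2 called 5413 at 24 h against vehicle, where edgeR called 4346. At 7 days DESeq2 called 796 against vehicle and 434 against 48 h, where edgeR called 0 in both. All-gene counts under the other alternatives named here are not given, so nothing is read from the members' counts.

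Mice of 1 number in several groups are not the same animal. Their log2 CPM, centred on each group, correlated by -0.04 on average (24 pairs, -0.28 to 0.24), against 0.01 for different numbers, so the numbers do not pair the samples. With the replicate number as a block the counts of calls were 1, 2, 0, 0 and 0, as without it. Under the block Abca5 at 7 days against vehicle turned to 0.00581 and Abca9 at 7 days against 48 h to -0.000108 (log2).

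Of the single-gene values, those that turned sign had not passed the test, except Abca7 at 48 h against vehicle. With the Rn18s-rs5 share as covariate the log2 fold changes against vehicle turned to 0.269 (Abca1), 0.414 (Abca7) and -0.484 (Abca8a) at 24 h, to 0.804 (Abca1), 0.184 (Abca3), 0.406 (Abca7) and -0.0882 (Abca8a) at 48 h, and to -0.0564 (Abca8b) at 7 days. With the mitochondrial share they turned to -0.544 (Abca8a) at 24 h, 0.217 (Abca1), 0.118 (Abca3) and -0.45 (Abca8a) at 48 h and -0.0865 (Abca8b) at 7 days. Under the same covariate, 48 h against 24 h turned to -0.0566 (Abca2), -0.00826 (Abca5), 0.117 (Abca7), -0.0831 (Abca8b) and -0.172 (Abca9). Without the 3 mice of deviating header number, the values were -0.0644 (Abca8a, 24 h), 0.0397 (Abca1, 48 h), 0.0308 (Abca3, 48 h) and -0.0816 (Abca2, 48 h against 24 h). Abca8a at 24 h was -0.000142 without a filter and -0.0854 with thinned counts, and summed with Abca8b it was -0.321 at 24 h and -0.252 at 48 h. At 48 h Abca1 was 0.0391 with total counts and 0.108 with library 1 alone, and Abca3 0.0247 with total counts. Abca5 at 7 days turned to 0.0575 with total counts, 0.0116 with DESeq2, 0.0122 with RLE factors, 0.0127 with the stricter filter, 0.0189 and 0.0054 with library 1 and 2 alone, 0.0357 with thinned counts and 0.0349 with only the groups compared. Abca9 at 7 days against 48 h turned to -0.0123 with total counts, -0.0098 with the stricter filter, -0.0422 with library 1 alone and -0.012 with thinned counts, and Abca7 at 48 h against 24 h to 0.0819 with library 2 alone.

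With a mouse left out, these values also turned sign, over ranges against vehicle of -0.633 to 0.674 (Abca8a, 24 h), -0.337 to 0.121 (Abca1, 48 h), -0.161 to 0.0317 (Abca3, 48 h), -0.092 to 0.0972 (Abca5, 7 days), -0.256 to 0.246 (Abca7, 7 days) and -0.12 to 0.149 (Abca8b, 7 days). For 48 h against 24 h the ranges were -0.115 to 0.239 (Abca2) and -0.163 to 0.0547 (Abca7), and for 7 days against 48 h -0.164 to 0.511 (Abca8a) and -0.187 to 0.247 (Abca9). Depth limits Abca8a and Abca9, with as few as 3 and 8 counts a mouse.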
